A study of Mus musculus with 16 samples.

Results

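The gene for p53, its family members and a group of p53 target genes were measured by RNA-seq in 16 abdominal tumors of mice. The 10 genes were Trp53, Trp63 and Trp73 of the family and the 7 targets Trp53inp1, Cdkn1a, Mdm2, Ccng1, Bbc3, Zmat3 and Eda2r, out of 22298 genes in the count files. They were selected on measured values. Trp53inp1 and Trp73 had been picked out by their difference between the groups of these same tumors, and the other 8 genes were set beside them to see whether they follow Trp53inp1. The differences between the groups are therefore given for the 10 genes as a description, without a test. All 10 were among the 16817 genes with at least 10 reads over the 16 tumors.

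The tumors had grown from MFC cells, a mouse forestomach carcinoma line, injected into the abdomen. The hosts were wild-type mice of the 615 line, sex-matched and 6 weeks old. The vehicle group (8 tumors) was given PBS and the IL-33 treatment group (8 tumors) the cytokine IL-33, at 20 μg/kg into the abdomen every 2 days. The paper gives several group sizes for mice of this tumor model, some below and some above the number of tumors sequenced. Whether each tumor came from a separate mouse was not stated in the sources used here, so p-values measure the spread between these tumors. Total counts ranged from 14139268 to 24290794 in the vehicle group and from 16569613 to 24288893 in the IL-33 treatment group. Levels are given as CPM, a gene's reads scaled to all reads counted in that tumor.

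Markers of epithelium, the tissue of a gastric carcinoma, were present in part. Krt8, the most abundant of 8 simple epithelium genes, and Krt19 were present in each tumor, at 180.8 CPM or more and 44.5 CPM or more. Apart from IL-33 replicate 7, no tumor had more than 1.83 CPM of Krt18, 2.40 CPM of Epcam, 3.01 CPM of Cdh1, 1.34 CPM of Cldn3, 0.445 CPM of Cldn4 or 0.468 CPM of Cldn7. In IL-33 replicate 7 the same 6 genes had 159.1, 98.8, 104.1, 84.6, 13.5 and 34.9 CPM. That tumor also held transcripts of other tissues. All 11 female reproductive tract genes on the list were highest there, with a summed level of 1624 CPM against 2.72 to 10.3 CPM in the other 15 tumors, led by Ovgp1, the oviduct glycoprotein, at 922.5 CPM. All 6 smooth muscle genes were highest there too, summing to 6011 CPM against 17.7 to 362.5 CPM, with Acta2 the most abundant at 1887 CPM. Of 18 genes of multiciliated cells in the files, 17 were highest in it, and their sum was 223.9 CPM against 7.43 to 14.5 CPM. Rfx2, the most abundant of them over all tumors, was at 27.1 CPM in it and at most 10.7 CPM elsewhere, and Gmnc, Dnah9, Rsph4a, Hydin and Pifo had no reads in the other 15 tumors. A second library, vehicle replicate 4, differed in another way. Relative to the median tumor, genes with up to 1500 bases of exon were higher in it by a median of 0.90 on the log2 scale and genes with 8000 bases or more were at a median of −1.43, a measure added after the data had been seen. In the other 15 tumors the medians lay between −0.16 and 0.52 for the short genes and between −0.40 and 0.17 for the long ones. Results over both groups that rest on these 2 tumors are given with and without them. Correlations within a single group were computed only with them.

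The protein p53 is a transcription factor that is held at a low level by MDM2 and is stabilized when DNA is damaged or oncogenes are active. It then switches on genes that halt the cell cycle, repair DNA, kill the cell or feed back on p53 itself. Its relatives p63 and p73 bind similar DNA and are best known from development, p63 in stratified epithelium and p73 in multiciliated cells and neurons. Mutation of the p53 gene is common in gastric cancer. Because much of the control of p53 acts on the protein, the level of its own mRNA says little about its activity, and target genes are commonly read instead.

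Trp53 (ENSMUSG00000059552, chromosome 11 from 69580359 to 69591873 in GRCm38) was at 74.9, 125.4 and 151.1 CPM (lowest, median and highest of 8) in the vehicle group and at 75.2, 129.6 and 169.0 CPM in the group given IL-33. The ranges overlapped almost wholly, and 4 IL-33 tumors exceeded the mean of the vehicle group. The means were 124.5 ± 26.7 CPM (SD, n = 8) and 128.4 ± 30.2 CPM (SD, n = 8), and the fitted log2 fold change was −0.03 (standard error 0.13). The fits, unlike the CPM means, scale each tumor by its TMM factor, so the sign can differ where the difference is small.

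Both relatives were near the limit of detection in most tumors. Trp63 (ENSMUSG00000022510, chromosome 16 from 25683763 to 25892102) had 0.370, 0.474 and 0.840 CPM in the vehicle group and 0.117, 0.521 and 3.59 CPM in the IL-33 treatment group. IL-33 replicate 7 had the highest value, and its 63 reads were more than were counted in the other 7 IL-33 tumors together, and 3 IL-33 tumors lay below every vehicle tumor. The log2 fold change of Trp63 was 0.43 (standard error 0.58) with all tumors and −0.31 (standard error 0.41) without replicate 7.

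Trp73 (ENSMUSG00000029026, chromosome 4 from 154056253 to 154140208) had 10 reads in the whole vehicle group and 149 in the IL-33 treatment group, 89 of them in replicate 7. Its level was 0, 0.0533 and 0.282 CPM in the vehicle group and 0, 0.365 and 5.07 CPM in the IL-33 treatment group. After replicate 7, IL-33 replicates 4, 8 and 5 were the highest, with 1.46, 0.618 and 0.549 CPM, while replicate 6 had no reads. The log2 fold change was 3.49 (standard error 1.01), and 2.48 (standard error 0.80) without replicate 7. Part of the gene, 280 bases of exon, overlaps the antisense gene Trp73os, and since the strand used in counting was not stated, reads from both cannot be told apart there.

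Marker levels are set beside those of Trp63 and Trp73 next, and their part in the results was not tested. A higher share of cells of a type and more RNA per cell cannot be told apart in whole tumors. Replicate 7, the highest tumor for Trp63 and Trp73, was also the highest for the multiciliated list, as given above. Genes of squamous and basal epithelium, where p63 is best known, summed to 18.0 CPM in it and to between 3.08 and 13.7 CPM in the other tumors. Of these 12 genes 5 were highest in replicate 7, but Krt5 and Krt14 were at 0.228 and 0.114 CPM, Krt6a and Krtdap had no reads in it, and Krt13, the most abundant of the list over all tumors, was at 0.684 CPM in it and at up to 8.76 CPM elsewhere. The 3 other IL-33 tumors with the most Trp73 also had high B cell levels. The 8 B cell genes, highest among IL-33 tumors in replicate 4, summed to 35.5 CPM in replicate 8, 28.4 CPM in replicate 7 and 14.5 CPM in replicate 5, each above the group's median of 12.8 CPM. Vehicle replicate 2, however, had the highest B cell sum of the 16 tumors, 71.9 CPM, and no read of Trp73. Cd79b was the most abundant B cell gene, at up to 15.9 CPM. The 9 T cell genes, of which Lck was the most abundant, were highest in vehicle replicate 7, at 98.8 CPM, and reached 85.9 and 69.6 CPM in IL-33 replicates 4 and 8. They were at 14.5 and 25.2 CPM in IL-33 replicates 5 and 7, which also had much Trp73, and at 56.1 CPM in replicate 3, which had little. Macrophage genes, with C1qa the most abundant, summed to 750.4, 1054 and 2183 CPM in the vehicle group and to 573.2, 1185 and 1897 CPM in the IL-33 treatment group.

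Trp53inp1 (ENSMUSG00000028211, chromosome 4 from 11156431 to 11174379) encodes a stress protein that acts with p53 in cell death and autophagy. It was at 3.04, 13.6 and 26.4 CPM in the vehicle group and at 11.7, 32.6 and 64.2 CPM in the group given IL-33. The groups overlapped, with 5 IL-33 tumors above every vehicle tumor and 7 above the vehicle mean. IL-33 replicate 7 was the highest of the 16 tumors and vehicle replicate 4 the lowest. IL-33 replicates 7, 4, 8 and 5 had the most Trp53inp1 and the highest B cell sums of their group. Replicate 6, at 32.4 CPM of Trp53inp1 against 32.7 CPM in replicate 5, had the group's lowest B cell sum, 2.54 CPM. Vehicle replicate 2, with the highest B cell sum of all, had 16.1 CPM of Trp53inp1. The part of B cells was not tested. The means were 14.4 ± 6.67 CPM (SD, n = 8) and 33.6 ± 16.4 CPM (SD, n = 8), and 29.3 ± 11.6 CPM (SD, n = 7) without replicate 7. The log2 fold change was 1.16 (standard error 0.31) with all tumors, 1.03 (standard error 0.30) without IL-33 replicate 7 and 0.90 (standard error 0.26) without both that tumor and vehicle replicate 4, a fit chosen after seeing the data.

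The other targets did not show a difference of that size. Mdm2 (ENSMUSG00000020184, chromosome 10 from 117688875 to 117710758), which encodes the ubiquitin ligase that removes p53, was at 93.9, 204.8 and 242.7 CPM in the vehicle group and at 71.4, 245.9 and 325.4 CPM in the IL-33 treatment group. Its mean was 195.3 ± 48.3 CPM (SD, n = 8) against 221.6 ± 78.6 CPM (SD, n = 8). Of the IL-33 tumors 5 were above every vehicle tumor, and replicate 7 was below every one. The log2 fold change of 0.16 (standard error 0.25) was 0.31 (standard error 0.17) without replicate 7.

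Cdkn1a (ENSMUSG00000023067, chromosome 17 from 29090976 to 29100727) encodes p21, the inhibitor through which p53 halts the cell cycle. It varied little among the vehicle tumors, at 159.1, 169.6 and 203.9 CPM, and more in the IL-33 treatment group, at 49.8, 186.3 and 288.2 CPM. The lowest value was that of replicate 7 and the other 7 IL-33 tumors were at 169.5 CPM or more. The means were 176.5 ± 18.4 CPM (SD, n = 8) and 192.3 ± 72.6 CPM (SD, n = 8), a log2 fold change of 0.07 (standard error 0.28) that was 0.22 (standard error 0.17) without replicate 7. It shares 273 bases of exon with an annotated antisense gene, so that some of its reads could belong there. Ccng1 (ENSMUSG00000020326, chromosome 11 from 40748552 to 40755311), the gene of cyclin G1, was at 73.3, 142.7 and 217.0 CPM in the vehicle group and at 71.1, 171.0 and 243.8 CPM in the IL-33 treatment group. Replicate 7 was again the lowest tumor, and 1 IL-33 tumor was above every vehicle tumor.

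Among targets tied to cell death, Bbc3 (ENSMUSG00000002083, chromosome 7 from 16308393 to 16318205), the gene of the BH3-only protein PUMA, was at 13.7, 16.2 and 24.6 CPM in the vehicle group and at 10.8, 19.7 and 29.7 CPM in the IL-33 treatment group. Its lowest value was once more in IL-33 replicate 7. Eda2r (ENSMUSG00000034457, chromosome X from 97333840 to 97377216), a receptor of the TNF receptor family, was at 1.20, 12.2 and 22.4 CPM in the vehicle group and at 9.07, 15.3 and 19.6 CPM in the IL-33 treatment group. No IL-33 tumor was above the highest vehicle tumor, and the lowest value of the 16 was that of vehicle replicate 4. Zmat3 (ENSMUSG00000027663, chromosome 3 from 32334792 to 32366014), which encodes an RNA-binding protein that alters splicing, was at 36.0, 80.2 and 124.6 CPM in the vehicle group and at 39.3, 92.8 and 128.4 CPM in the IL-33 treatment group. Vehicle replicate 4 and IL-33 replicate 7 were its lowest tumors. The log2 fold changes of Ccng1, Bbc3, Zmat3 and Eda2r lay between 0.12 and 0.27 with all tumors and between 0.25 and 0.30 without IL-33 replicate 7, each with a standard error of 0.16 or more. Without IL-33 replicate 6, those of Ccng1, Bbc3 and Zmat3 fell to 0.023, 0.065 and 0.018, their lowest over the alternatives. That of Eda2r ranged from 0.10 without vehicle replicate 4 to 0.46 without vehicle replicate 1.

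**Figure D1:**
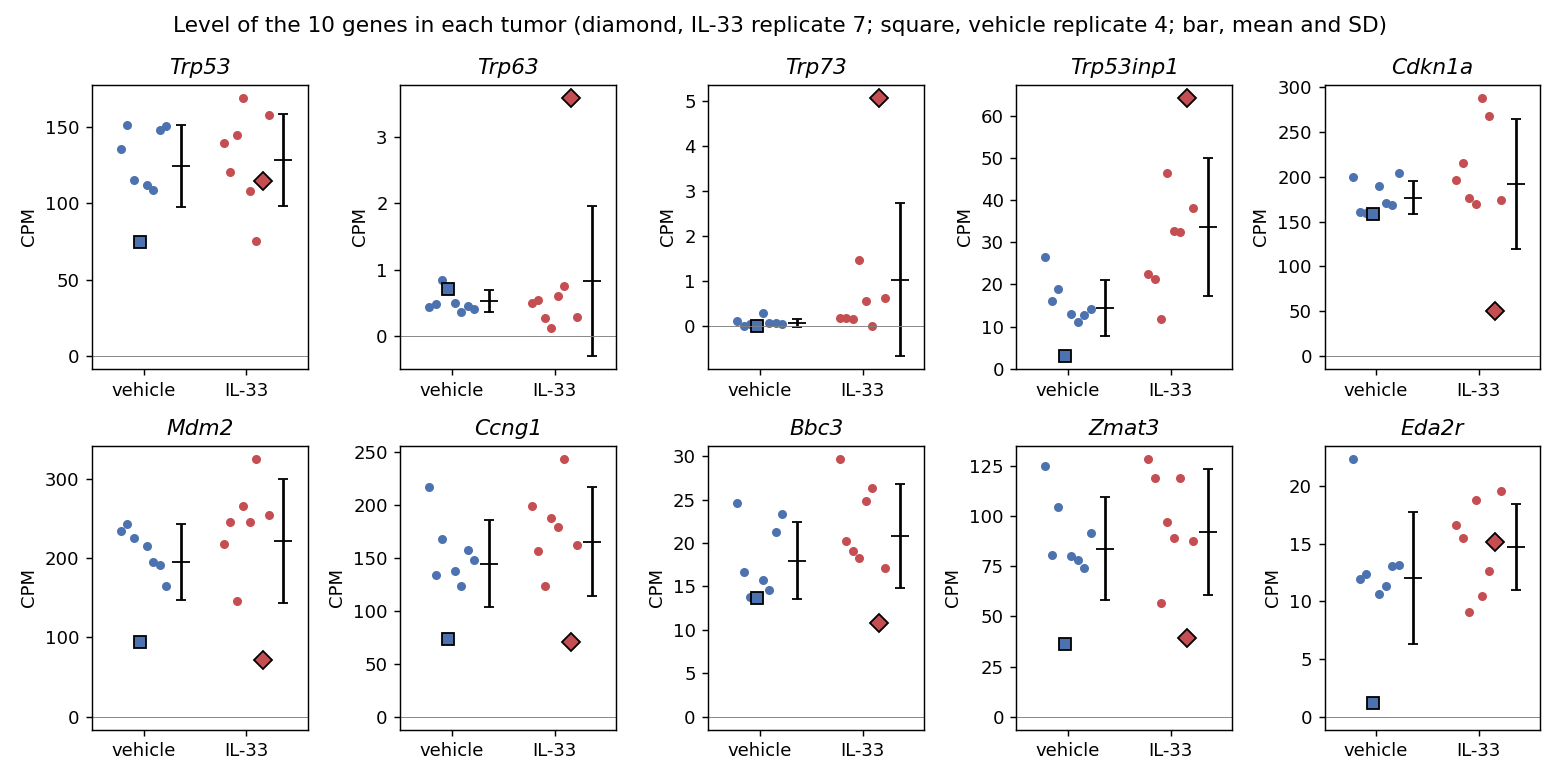
Level of each of the 10 genes in CPM (vertical axes, linear) in the 8 vehicle tumors (blue) and the 8 IL-33 tumors (red), 1 point per tumor, with the mean and SD beside each group. IL-33 replicate 7 (diamond) was the highest of the 16 tumors for Trp63, Trp73 and Trp53inp1 and the lowest for Cdkn1a, Mdm2, Ccng1 and Bbc3, and vehicle replicate 4 (square) was the lowest for Trp53, Trp53inp1, Zmat3 and Eda2r.

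Set in order per kilobase of exon, the levels in the vehicle group were led by Cdkn1a, with a mean of 49.7 CPM per kilobase, followed by Ccng1 (41.2), Mdm2 (38.4) and Trp53 (30.8). Neighbours among these 4 were closer together than the larger of their SDs. Bbc3 and Zmat3 formed the next step, at 8.46 and 7.31 CPM per kilobase, and did not differ beyond that spread either. Trp53inp1 and Eda2r, at 2.23 and 2.04 CPM per kilobase, were close in the vehicle group but apart in the IL-33 treatment group, where they were at 5.20 and 2.50 CPM per kilobase. Trp63 and Trp73 were lowest in both groups.

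Of the 10 genes, the fit over all genes put Trp53inp1 and Trp73 under an unadjusted p of 0.05, both higher in the IL-33 treatment group, which is what chose them. Over the 16817 genes tested, 1680 (9.99%) were higher and 196 (1.17%) lower at that threshold in edgeR's quasi-likelihood test, and 0 genes had an adjusted p under 0.05, with edgeR or with DESeq2. Without IL-33 replicate 7 the shares were 1.83% higher and 2.29% lower. Fitted log2 fold changes were above 0 for all 7 targets in both fits, as were those of 58.3% and 47.9% of all genes tested, and the 7 include Trp53inp1, chosen for its higher level. The medians of the 7 were 0.16 and 0.30 against 0.06 and −0.01 over all genes tested. With the replicate number as a block, the log2 fold change of Cdkn1a was −0.08. Without IL-33 replicate 6 it was −0.05, and those of Mdm2, Ccng1, Zmat3 and Bbc3 were 0.02, 0.023, 0.018 and 0.065. Those of Trp53inp1 and Eda2r were then 1.12 and 0.26.

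**Figure D2:**
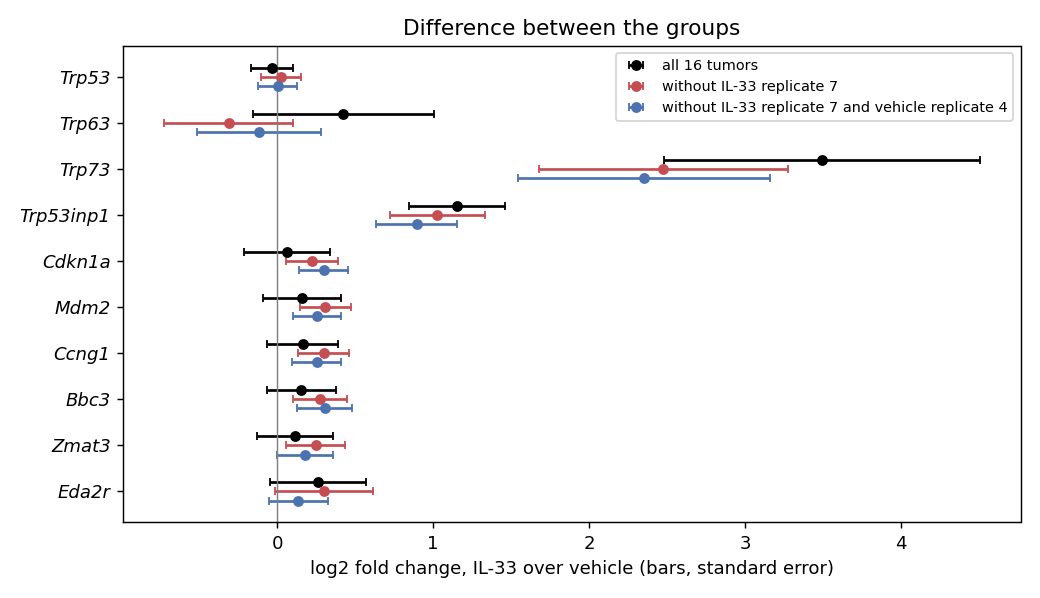
Log2 fold change of the IL-33 treatment group over the vehicle group (horizontal axis) for each of the 10 genes from edgeR, with bars for the standard error, over all 16 tumors (black), without IL-33 replicate 7 (red) and without that tumor and vehicle replicate 4 (blue). Trp53inp1 lay at 1.16, 1.03 and 0.90, and the other 6 targets between 0.07 and 0.31.

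The share of Trp53inp1 relative to other targets was also read within each tumor, as a description. Trp53inp1 was chosen for its higher level in the IL-33 treatment group. Higher ratios in that group therefore follow largely from this choice and are no further evidence of a difference. The ratio of Trp53inp1 to Ccng1 CPM was 0.0415, 0.0951 and 0.122 (lowest, median and highest) in the vehicle group and 0.0955, 0.159 and 0.904 in the IL-33 treatment group, with 6 IL-33 tumors above every vehicle tumor. For Mdm2 the median ratio was 0.0665 in the vehicle group and 0.118 in the IL-33 treatment group, and 4 IL-33 tumors were above every vehicle tumor. The ratio to Zmat3 was above every vehicle tumor in 5 IL-33 tumors, and those to Cdkn1a, Bbc3 and Eda2r in 3 each. Replicate 7 was the highest tumor for each of the 6 ratios, and its ratio of Trp53inp1 to Cdkn1a was 1.29, against at most 0.274 in the other 15 tumors.

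To ask whether other targets follow Trp53inp1 from tumor to tumor apart from the difference between the groups, each gene's log2 CPM was centred on its group mean and correlated with that of Trp53inp1 over the 16 tumors. The 9 relations were tested by permuting tumors within groups (100000 permutations, two-sided). Eda2r was the 1 gene of the 9 with an adjusted p under 0.05, with Pearson's r = 0.73 (permutation p = 0.00381, adjusted p = 0.0343 over the 9 relations and 0.0379 over 16816 genes). Spearman's coefficient was 0.43 (permutation p = 0.106, adjusted p = 0.4). A positive correlation at an adjusted p under 0.05 was found for 4.99% of all genes. The relation of Eda2r rested in part on vehicle replicate 4, without which r was 0.54 (permutation p = 0.0451, adjusted p = 0.406 over the 9 relations), none of the 9 passed, and 0.00595% of all genes had a positive r at an adjusted p under 0.05. Over its 9 alternatives the adjusted p of Eda2r lay between 0.00877 and 0.406.

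Mdm2, Ccng1 and Zmat3 had r of 0.08, 0.13 and 0.18 over the 16 tumors (permutation p = 0.77, 0.644 and 0.535) and Spearman coefficients of 0.33, 0.34 and 0.24 (permutation p = 0.222, 0.211 and 0.378). One tumor set these values. Without IL-33 replicate 7, r was 0.76 for Mdm2 (permutation p = 0.00115), 0.70 for Ccng1 (permutation p = 0.00814), 0.66 for Zmat3 (permutation p = 0.0108) and 0.80 for Eda2r (permutation p = 0.00195), and these 4 of the 9 genes had an adjusted p under 0.05. The same 4 passed when p was adjusted over all genes, as did 12.4% of all genes in the positive direction, with 19.8% at an unadjusted p under 0.05. Spearman's coefficient was then 0.67, 0.59, 0.36 and 0.53 (permutation p = 0.00921, 0.03, 0.203 and 0.0493).

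The 2 tumors farthest from the median of Trp53inp1 were vehicle replicate 4 and IL-33 replicate 7. Without both, r was 0.73 for Mdm2, 0.68 for Ccng1, 0.67 for Eda2r and 0.56 for Zmat3 (permutation p = 0.0122, 0.0165, 0.0158 and 0.0663). The first 3 had an adjusted p of 0.0494 over the 9 relations, and over all genes none of the 9 was under 0.05. With a positive r, 9.35% of all genes had an unadjusted p under 0.05 and 0.0362% an adjusted p under 0.05. The r of Mdm2 was equalled or exceeded by 2.70% of genes, that of Ccng1 by 4.25%, of Eda2r by 4.73% and of Zmat3 by 9.94%. Without IL-33 replicate 7 alone, these shares were 7.21%, 11.2%, 4.45% and 13.5%. The adjusted p of Mdm2 and of Ccng1 ranged up to 0.982 over the alternatives.

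Cdkn1a and Bbc3 did not follow Trp53inp1 in any of these sets of tumors. Their r was −0.36 and −0.27 over the 16 tumors (permutation p = 0.187 and 0.326, adjusted p = 0.562 and 0.735), −0.13 and −0.05 without IL-33 replicate 7, and 0.19 and 0.11 without both tumors. Spearman's coefficient over the 16 tumors was −0.37 and −0.24 (permutation p = 0.165 and 0.391). The level of Trp53 mRNA had r = −0.17 (permutation p = 0.558) and a Spearman coefficient of −0.09 (permutation p = 0.741), and its r was 0.36 on log2(CPM + 0.5) without TMM factors, so its sign depended on the scaling. For Trp73 r was 0.48 (permutation p = 0.067, adjusted p = 0.302) and Spearman's coefficient 0.54 (permutation p = 0.0471, adjusted p = 0.4), and for Trp63, with few reads, r was 0.09 (permutation p = 0.742) and Spearman's coefficient 0.03 (permutation p = 0.928).

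Within the vehicle group alone, exact permutation tests over the 40320 pairings of 8 tumors gave r of 0.92 for Zmat3 (exact p = 0.00211, adjusted p = 0.019), 0.94 for Eda2r (exact p = 0.00801, adjusted p = 0.0318), 0.78 for Mdm2 (exact p = 0.0106, adjusted p = 0.0318) and 0.82 for Ccng1 (exact p = 0.0233, adjusted p = 0.0525). The group includes vehicle replicate 4, its lowest tumor for Trp53inp1 and for each of these 4 genes. By rank the 4 Spearman coefficients were 0.81, 0.60, 0.76 and 0.69 (exact p = 0.0218, 0.132, 0.0368 and 0.0694), with no adjusted p under 0.05. With p adjusted over 16457 genes none of the 4 was under 0.05, nor was any other gene with a positive r, and 16.9% of all genes had a positive r at an unadjusted exact p under 0.05. Within the IL-33 treatment group, with replicate 7 included, the same genes had r of −0.17, 0.42, −0.12 and −0.15 (exact p = 0.68, 0.302, 0.774 and 0.716). Replicate 7 was the group's highest tumor for Trp53inp1 and its lowest for Zmat3, Mdm2 and Ccng1. No r within either group was computed without its outlying tumor, so the values of the 2 groups are not compared. Whether the relation differed between the groups was not tested.

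**Figure D3:**
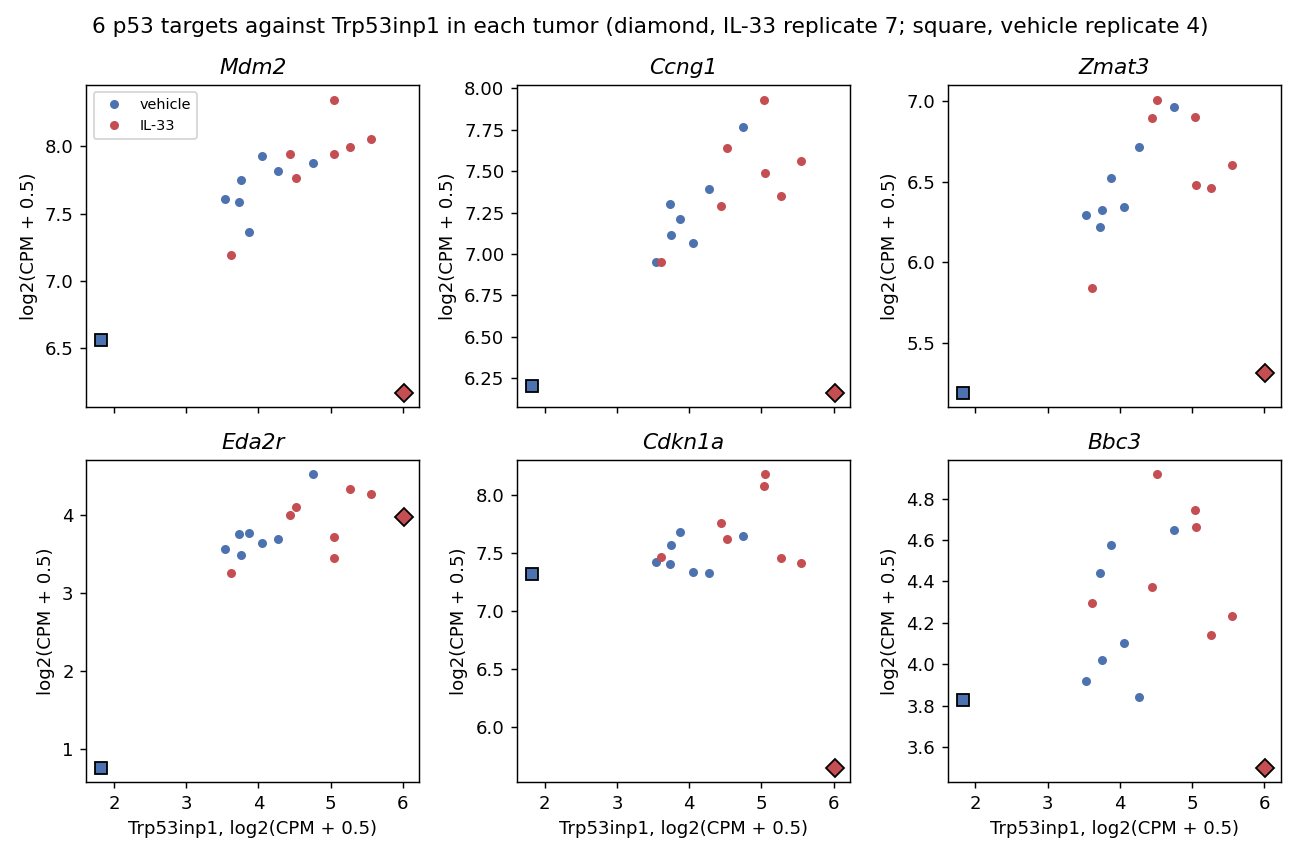
Log2(CPM + 0.5) of 6 p53 targets (vertical axes) against that of Trp53inp1 (horizontal axis) in the 8 vehicle (blue) and 8 IL-33 (red) tumors, 1 point per tumor. Vehicle replicate 4 (square) lies at the low end of Trp53inp1, and IL-33 replicate 7 (diamond) at the high end of Trp53inp1 and the low end of each other target but Eda2r.

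The genes most like Trp53inp1 over the 16 tumors, among 13108 genes with a mean of at least 1 CPM, were Zmym4, Rab11fip2, Crybg3, Mycbp2 and Cdk5rap2, with centred r between 0.91 and 0.93. The genes most like Cdkn1a were Prkg2, Rpn2, Vim, Areg and Mst1, with r between 0.97 and 0.98. Without IL-33 replicate 7 these genes had r between 0.90 and 0.94 with Trp53inp1 and between 0.83 and 0.90 with Cdkn1a, and other genes came first. The genes most like Trp53inp1 were then 8030462N17Rik, Atr, Arfgef1, Rab11fip2 and Rapgef6 (r between 0.94 and 0.95), and those most like Cdkn1a were Ralb, Fchsd1, Il34, Rad51d and Lce3c (r between 0.92 and 0.93). The level of Trp53inp1 was lowest in vehicle replicate 4, where long genes were low as a class, and the part of exon length in these correlations was not tested. Trp53inp1 has 6475 bases of exon, Zmat3 11435, Eda2r 5891, Mdm2 5083, Cdkn1a 3553, Ccng1 3512 and Bbc3 2124.

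The targets were also compared with each other, in 45 pairs of the 10 genes, a comparison added after the data had been seen. With p adjusted over the 45 pairs, 7 pairs were positively and 2 negatively correlated at an adjusted p under 0.05, the negative ones being Trp53 with Trp63 and Trp73 with Bbc3. Without IL-33 replicate 7 there were 10 positive and 2 negative pairs, the negative ones being Trp53 with Trp63 and Trp53 with Cdkn1a. The r of Trp53 with Cdkn1a was then −0.72 and the Spearman coefficient −0.67 (permutation p = 0.00658 and 0.0157, adjusted p = 0.0334 and 0.123), against 0.09 and −0.15 over the 16 tumors (permutation p = 0.834 and 0.597). The share of pairs of all genes passing such a test was not computed, so nothing about these 10 genes is read from the counts of pairs. By Pearson's r and Spearman's coefficient alike, 2 pairs passed. Ccng1 and Zmat3 had r = 0.93 and a Spearman coefficient of 0.92 (permutation p = 2e-05 and 1e-05, adjusted p = 0.0009 and 0.00045), where 1e-05 is the smallest that the permutations can give. Cdkn1a and Bbc3 had r = 0.86 and a Spearman coefficient of 0.82 (permutation p = 0.00049 and 0.00021, adjusted p = 0.00765 and 0.00472). Without the 2 tumors farthest from the median of Ccng1 or of Cdkn1a, IL-33 replicates 6 and 7 in both cases, r was 0.84 (permutation p = 0.00058) and 0.64 (permutation p = 0.0214). Without IL-33 replicate 7 alone, r was 0.84 and 0.70 (adjusted p = 0.0189 and 0.0334) and the Spearman coefficient 0.78 for each (permutation p = 0.00184 and 0.003, adjusted p = 0.0675 for each). Among all pairs of 13109 genes, 0.34% and 1.82% had an r at least as high over the 16 tumors, and 3.12% and 8.84% without IL-33 replicate 7. The pair of Cdkn1a and Mdm2 had r = 0.81 and a Spearman coefficient of 0.35 over the 16 tumors (permutation p = 0.0325 and 0.204), and r = 0.23 (permutation p = 0.504) without IL-33 replicate 7.

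Other p53 targets, a list of 44 genes of which 43 were tested, had a median log2 fold change of 0.12, against 0.06 over all genes. In edgeR's test 4 of the 43 (9.30%) had higher levels with IL-33 at an unadjusted p under 0.05, close to the 9.99% of all genes, and 0 were lower. The 4 were Btg2, Plk2, Ddb2 and Spata18, each with an adjusted p of 0.418. Btg2, an antiproliferative gene, was at 15.6, 24.4 and 29.4 CPM in the vehicle group and at 19.2, 32.3 and 80.2 CPM in IL-33 tumors, replicate 7 having the most. Its log2 fold change was 0.60 (standard error 0.20), and 7 IL-33 tumors exceeded the mean of the vehicle group. Plk2, a polo-like kinase gene, was at 28.4, 48.6 and 56.9 CPM against 47.1, 63.3 and 80.3 CPM, with 6 IL-33 tumors above every vehicle tumor and a log2 fold change of 0.36 (standard error 0.12). The remaining pair rested on replicate 7. Ddb2, a DNA repair gene, was at 17.6 CPM there and at no more than 1.92 CPM in the other IL-33 tumors. Spata18 had 72 reads there and 0 in the other 15 tumors, where a count of 0 allows up to 0.212 CPM in the smallest library.

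Without IL-33 replicate 7, 7 of 42 other targets (16.7%) were higher at an unadjusted p under 0.05, against 1.83% of all genes, and 0 were lower. These were Plk2, Sesn2, Btg2, Psrc1, Apaf1, Slc19a2 and Tap1, of which the last 4 and Sesn2 are named after their values had been seen. Their log2 fold changes lay between 0.34 and 0.54, and none of the 7 had an adjusted p under 0.05. The median of the 42 was 0.11, against −0.01 over all genes. Without vehicle replicate 4 as well, 6 of 42 (14.3%) were higher, against 2.1% of all genes, with Tap1 no longer among them. Sesn2, a stress-induced sestrin gene, was at 19.6, 36.7 and 46.4 CPM in the vehicle group and at 25.7, 46.9 and 58.1 CPM in the IL-33 treatment group, with replicate 7 the lowest IL-33 tumor. Apaf1, which encodes the scaffold of the apoptosome, was at 11.9, 35.1 and 45.1 CPM against 26.7, 43.1 and 46.8 CPM. Vehicle replicate 4 was the lowest tumor for both.

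Among 22 regulators of p53, Mdm4 and Trp53bp2 were higher at an unadjusted p under 0.05 (9.09%, against 9.99% of all genes), and 0 were lower. Mdm4, a relative of MDM2 that restrains p53, was at 21.4, 53.9 and 64.8 CPM in the vehicle group and at 44.7, 64.1 and 142.1 CPM in the IL-33 treatment group, and edgeR gave a log2 fold change of 0.42 (standard error 0.17) with an adjusted p of 0.418. Trp53bp2, the gene of ASPP2, which steers p53 toward death genes, exceeded the mean of the vehicle group in all 8 IL-33 tumors, and edgeR gave a log2 fold change of 0.38 (standard error 0.17) with an adjusted p of 0.426. Both were highest in replicate 7, and without it 0 of the 22 regulators were under 0.05, against 1.83% of all genes higher and 2.29% lower. Cdkn2a, whose product ARF blocks MDM2, had the next smallest p. It was at 0.123, 0.756 and 1.77 CPM in the vehicle group and at 0, 0.357 and 0.765 CPM in the IL-33 treatment group, and none of the IL-33 tumors exceeded the vehicle mean (log2 fold change −1.26, standard error 0.74, adjusted p = 0.567 from edgeR).

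Cell cycle genes that p53 represses through p21 gave a further reading. Of 20 such genes, 0 were higher or lower at an unadjusted p under 0.05, against 9.99% and 1.17% of all genes. Their median log2 fold change was −0.07 with all tumors, where 5 of the 20 were above 0, and 0.09 without IL-33 replicate 7, where 18 were, against medians of 0.06 and −0.01 over all genes. Without vehicle replicate 4 as well, the median was 0.03 and 15 were above 0, against a median of 0.008 over all genes. In IL-33 replicate 7, 19 of the 20 were at their lowest level of the 16 tumors, as were 12.2% of all genes tested. Mki67 was at 68.8 CPM there against vehicle and IL-33 means of 283.1 and 262.3 CPM. Low Cdkn1a and low cell cycle genes were thus found in the same tumor, the one with the highest sum of smooth muscle and reproductive tract transcripts. Their part in the levels of the p53 targets was not tested. Of the other 43 targets, 15 were highest and 11 lowest in replicate 7, against 43.0% and 12.2% of all genes tested.

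Promoters are shown of Mdm2 and Ccng1, which followed Trp53inp1 without IL-33 replicate 7 but not over the 16 tumors, and of Cdkn1a, which followed it in neither set. RefSeq promoters (GRCm38.p6, 250 bases before to 50 bases after a transcript start) were found for 7 of the 10 genes, in 11 windows, and not for Trp63, Trp53inp1 and Zmat3. They were searched for the p53 consensus decamer, which reads the same on both strands. It was absent from the window of Eda2r, which followed Trp53inp1 by Pearson's r in both sets of tumors. By rank over the 16 tumors, or without vehicle replicate 4, the adjusted p of Eda2r was not under 0.05. The decamer was present in 4 of the 11 windows, 1 each of Mdm2, Ccng1, Trp53 and Cdkn1a, and in 8.36% of all 32851 promoters. A pair of decamers with at most 13 bases between them was present in the window at the upstream start of Cdkn1a and in 0.0731% of all promoters. The windows of Mdm2 (chr10:117710709-117711008, minus strand), Ccng1 (chr11:40755237-40755536, minus strand) and Cdkn1a (chr17:29090729-29091028, plus strand) run from the promoter across the start into the first exon, with decamers in capitals.
Mdm2: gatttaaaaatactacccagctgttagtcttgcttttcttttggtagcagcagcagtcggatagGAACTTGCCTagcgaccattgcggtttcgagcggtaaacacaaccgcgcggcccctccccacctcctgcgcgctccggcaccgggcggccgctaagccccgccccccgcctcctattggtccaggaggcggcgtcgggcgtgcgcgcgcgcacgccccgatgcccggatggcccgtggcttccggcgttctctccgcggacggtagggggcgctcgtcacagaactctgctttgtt
Ccng1: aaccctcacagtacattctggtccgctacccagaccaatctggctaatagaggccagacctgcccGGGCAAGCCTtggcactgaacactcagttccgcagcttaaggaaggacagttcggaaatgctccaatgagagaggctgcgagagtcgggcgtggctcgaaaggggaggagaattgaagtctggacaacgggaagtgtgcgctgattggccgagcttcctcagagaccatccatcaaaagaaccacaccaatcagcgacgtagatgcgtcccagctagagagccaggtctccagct
Cdkn1a: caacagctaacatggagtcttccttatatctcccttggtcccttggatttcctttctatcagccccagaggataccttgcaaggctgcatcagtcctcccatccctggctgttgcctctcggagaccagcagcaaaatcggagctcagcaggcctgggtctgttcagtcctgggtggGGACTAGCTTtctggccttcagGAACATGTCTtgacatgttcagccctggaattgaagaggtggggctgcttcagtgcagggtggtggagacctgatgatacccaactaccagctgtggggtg
A match describes these letters and not binding. In Mdm2 and Ccng1 the decamer began 186 and 185 bases before the start, and the 2 of Cdkn1a began 73 and 51 bases before it.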

How the data were processed

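RNA-seq of poly(A) RNA from 16 tumors was used, with groups and replicate numbers from the sample titles. The deposited values are raw counts per gene, made by the authors with HISAT2 and featureCounts on mm10 according to the submitters' processing notes. Versions and strand setting are not given in the sources used here. CPM and log2 CPM were computed here from the deposited counts. Symbols (22255 of 22298 IDs), coordinates and exon lengths came from GENCODE M21. Genes reaching 10 counts in the 16 tumors together had two-sided tests with edgeR 4.0.16 (R 4.3.3, TMM factors, quasi-likelihood, Benjamini-Hochberg over all genes), and with DESeq2 1.42.0 as an alternative. The edgeR model and the correlation test were tried on simulated data, and DESeq2 was not. The lowest TMM factor was 0.64 (vehicle replicate 4) and the highest 1.24 (IL-33 replicate 7). Correlations used TMM log2 CPM (prior count 2) and numpy 2.4.6. No pair of tumors agreed within sampling noise (chi-square per degree of freedom 7.69 or more).

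The genes and lists were chosen with earlier results of these data known. Genes named were the 10 chosen, list genes under an unadjusted p of 0.05 (up to 6 per list, at least the 3 smallest p), the most abundant and defining markers, and the 5 genes most correlated with Trp53inp1 and with Cdkn1a. Mki67 and the most correlated genes without IL-33 replicate 7 are named outside this rule, once their values were known. Alternatives were upper-quartile scaling, edgeR's filterByExpr, no filter, a replicate block and each tumor left out. For the correlations they were other scalings, a prior count of 0.5, no centring, ranks and tumors left out. Trp53cor1 was not matched in the files, nor were Dnai1 and Dnai2 of the multiciliated list.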

Additional observations from a re-analysis of the deposited data

Results flagged for a closer look

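The 10 genes were checked in each group of 8 tumors, 20 groups of values in all, for a highest or lowest tumor set apart from the others by more than 0.526 of the group's range on the log2(CPM + 0.5) scale. Chance marks about 1 in 20 such groups, and 8 were marked here. The share of all genes marked in this way was not computed, so nothing about these 10 genes is read from that count. Vehicle replicate 4 was set apart at the low end for 5 genes. It had 74.9 CPM of Trp53 against 108.8 to 151.1 CPM in the other vehicle tumors, 3.04 CPM of Trp53inp1 against 11.1 to 26.4 CPM, and 93.9 CPM of Mdm2 against 164.4 to 242.7 CPM. Zmat3 was at 36.0 CPM in it against 74.0 to 124.6 CPM, and Eda2r at 1.20 CPM against 10.7 to 22.4 CPM. IL-33 replicate 7 was set apart for 2 genes in opposite directions, with 3.59 CPM of Trp63 against 0.117 to 0.757 CPM in the other IL-33 tumors and 49.8 CPM of Cdkn1a against 169.5 to 288.2 CPM. Vehicle replicate 5 was set apart for Trp73, at 0.282 CPM against at most 0.0988 CPM, a value that rests on 4 reads. The marks for vehicle replicate 4 fall in the tumor with low levels of long genes and those for IL-33 replicate 7 in the tumor with transcripts of other tissues, and their part in these values was not tested.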

How the results depend on the processing

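Trp53inp1 and Trp73 kept a positive log2 fold change in each fit that could be made, from 0.90 to 1.34 over 22 alternatives for Trp53inp1 and from 2.35 to 4.13 over 21 for Trp73. The sign changed in 4 alternatives for Trp53, 3 for Trp63 and 3 for Cdkn1a, each from a value smaller than its standard error. Trp63 and Trp73 did not pass filterByExpr.

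Genes higher at an unadjusted p under 0.05 numbered 1680, but 424 with DESeq2, 498 with filterByExpr, 246 with the replicate block and 330 without both IL-33 replicate 7 and vehicle replicate 4. Leaving out single tumors gave from 289 (without IL-33 replicate 7) to 1902. Genes lower numbered 196, but 72 with the replicate block and 329 without both tumors, and 111 (without vehicle replicate 4) to 362 (without IL-33 replicate 7) with each left out, also 307 and 126 without IL-33 replicates 3 and 5. Other p53 targets higher numbered 4, but 2 with DESeq2 and 2 with the replicate block, and 4 to 7 with each tumor left out. The cause was not tested. Genes with an adjusted p under 0.05 numbered 0 in each fit. Same-numbered tumors did not pair: correlations of their deviations lay between −0.32 and 0.35, and 1 of 8 IL-33 tumors correlated best with its own number.

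The count of genes correlated with Trp53inp1 was 1, but 2 without centring (Eda2r and Trp73, the latter chosen like Trp53inp1 for its difference between these groups, which an uncentred correlation includes), 0 by rank, 4 without IL-33 replicate 7, 0 without vehicle replicate 4, and 3 without the 2 farthest tumors, which are the same as both tumors above (3). It was 1 with the other scalings. Depth limits Trp63 and Trp73, where most tumors had under 20 reads.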
